A study of Mus musculus with 14 samples.

Results

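The Reg genes encode small secreted proteins that consist of a C-type lectin domain behind a signal peptide. *Reg1*, *Reg3a*, *Reg3b*, *Reg3g* and *Reg4* were followed across the 4 genotypes of the small intestinal organoids. The members were taken by symbol, and each had a row among the 18781 genes of the deposited table. All 5 were above the filter on low values that left 12802 genes for testing. The set was chosen by its names and partly selected on a measured value, since the rise of *Reg3a* in *Rnaseh2b* ΔIEC over WT organoids was among the largest of any gene. Differences between *Rnaseh2b* ΔIEC and WT organoids are therefore described here and not tested.

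In the small intestine, *Reg3b* and *Reg3g* are known as antimicrobial lectins that are released by enterocytes and Paneth cells and help to keep bacteria away from the epithelial surface. Their transcription is known to respond to interleukin-22 through STAT3 and to microbial signals through MyD88. *Reg1* was first known from regenerating pancreatic islets and is also made in the upper small intestine, and *Reg4* is a marker of secretory cells of the crypt and of enteroendocrine cells. Organoids are grown from crypts and hold epithelium without microbes or immune cells, so the levels below are those of the epithelium under culture conditions.

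All organoids were grown untreated in Intesticult medium. The 4 WT libraries carried loxP-flanked alleles of both *Atg16l1* and *Rnaseh2b* and no Cre. The knockouts carried 1 copy of Villin-Cre, which is driven by a promoter of the intestinal epithelium, with floxed *Atg16l1* (*Atg16l1* ΔIEC, n = 4), floxed *Rnaseh2b* (*Rnaseh2b* ΔIEC, n = 2) or both (*Atg16l1/Rnaseh2b* ΔIEC, n = 4). *Atg16l1* encodes a core protein of autophagosome formation, and *Rnaseh2b* a subunit of the enzyme that removes ribonucleotides from DNA. Presence of Cre and loss of a gene cannot be told apart against WT organoids, and the ages of the mice and the number of organoid lines are not given in the sources used here.

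Values are normalised expression on a log2 scale as deposited, so a difference of 1 is a doubling of the deposited value. The transformation is not named, so the fold differences below may differ from those of read counts. The read depth is unknown. *Rnaseh2b* was 8.54 ± 0.13 (SD) in WT (n = 4), 7.18 ± 0.04 (SD) in *Rnaseh2b* ΔIEC (n = 2) and 7.81 ± 0.10 (SD) in double knockout organoids (n = 4). *Atg16l1* was 9.46 ± 0.05 (SD) in WT (n = 4), 6.92 ± 0.29 (SD) in *Atg16l1* ΔIEC (n = 4) and 8.39 ± 0.19 (SD) in double knockout organoids (n = 4), so both transcripts were less reduced in the double than in the single knockouts. These values sum reads over all exons, including those outside the floxed parts. Whether deletion was less complete in the double knockout was not tested. By the library names, WT libraries were in lane 1, both single knockouts in lane 2, and 2 double knockout libraries in each lane. Libraries 1 and 2 of a genotype, and likewise 3 and 4, deviated together from their genotype mean (r from 0.41 to 0.86 across genes), and nothing says whether they came from separate cultures. The p-values therefore measure the spread between libraries, which may in part be technical.

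Of the 5 genes, 4 lie in a single Reg cluster. In GRCm38, with the GENCODE M21 annotation, *Reg3b* (ENSMUSG00000071356) is at chr6:78370657-78373466, *Reg3a* (ENSMUSG00000079516) at chr6:78380709-78383827 and *Reg1* (ENSMUSG00000059654) at chr6:78422711-78428667, all on the plus strand. *Reg3g* (ENSMUSG00000030017) is at chr6:78466269-78468872 on the minus strand. With *Reg2* and *Reg3d*, the cluster spans 98.2 kb. *Reg4* (ENSMUSG00000027876) is apart from it, at chr3:98222156-98236748 on the plus strand. Of the other cluster genes, *Reg3d* was below the filter with 2.16 to 2.46 in the 14 libraries, and *Reg2* was not analysed here. Reads of 50 bases can be assigned to these genes without much ambiguity: no 50-base window of *Reg3a*, *Reg3b*, *Reg3g* or *Reg4* recurred in another gene, and 32 of 876 windows of *Reg1* (3.65%) did.

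The 250 bases before the RefSeq start (GRCm38.p6) are given for *Reg3a* and *Reg3g*, which moved together in 2 of the comparisons below, and for *Reg4*, which moved opposite to them there. Capitals mark TATAAA or its reverse complement, a form of the TATA box.

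Reg3a (chr6:78380459-78380708, plus strand): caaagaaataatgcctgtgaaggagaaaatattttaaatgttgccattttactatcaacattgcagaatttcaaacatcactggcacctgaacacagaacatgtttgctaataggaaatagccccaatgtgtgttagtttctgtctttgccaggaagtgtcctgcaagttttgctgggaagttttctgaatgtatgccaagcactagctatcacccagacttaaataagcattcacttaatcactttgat
Reg3g (chr6:78468875-78469124, minus strand): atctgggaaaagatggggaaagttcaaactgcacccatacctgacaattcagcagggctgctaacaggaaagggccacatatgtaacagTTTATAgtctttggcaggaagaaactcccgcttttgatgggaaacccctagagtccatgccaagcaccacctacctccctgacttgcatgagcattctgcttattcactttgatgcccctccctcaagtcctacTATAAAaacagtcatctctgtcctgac
Reg4 (chr3:98221906-98222155, plus strand): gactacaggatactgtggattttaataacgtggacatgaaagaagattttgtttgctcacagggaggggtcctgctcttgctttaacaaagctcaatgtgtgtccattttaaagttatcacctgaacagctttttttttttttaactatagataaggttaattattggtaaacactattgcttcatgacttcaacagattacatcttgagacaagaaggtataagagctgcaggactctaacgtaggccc

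*Reg3g* holds TATAAA beginning 27 bases before the start, and again at 161 bases as the reverse complement. *Reg1* and *Reg3b* hold it at 30 and 29 bases, respectively, and *Reg3a* and *Reg4* do not hold it in this window. TATAAA on either strand is in 12.4% of the 32851 mouse promoter windows of this length. TTCNNNGAA, the palindrome that STAT proteins recognise, is in 7.02% of them, and among the members only in *Reg3b*, beginning 129 bases before the start. The longest run shared by *Reg3b* and *Reg3g* is 20 bases and ends at the start itself, whereas *Reg3a* and *Reg3g* share at most 11 bases. The letters alone are described here, and binding was not measured.

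The members did not move as a group. In *Atg16l1* ΔIEC against WT organoids, *Reg3a* and *Reg3g* rose and *Reg4* fell, so 3 of 5 passed the limma test at an adjusted p of 0.05, beside 19.1% of all genes (8.73% higher and 10.4% lower). In double knockout against *Atg16l1* ΔIEC organoids, *Reg4* rose and *Reg3a* and *Reg3g* fell, again 3 of 5, beside 25.1% of all genes (12.6% higher and 12.5% lower). These 2 comparisons share the *Atg16l1* ΔIEC libraries, and the first also holds the WT libraries of the contrast that chose *Reg3a*. The call of *Reg3a* in the first, and with it the count, is therefore not independent of that choice. Apart from it, *Reg3g* and *Reg4* passed there. Between double knockout and WT organoids, 0 of 5 passed, beside 16.1% of all genes, and 0 had an unadjusted p under 0.05. Double knockout against *Rnaseh2b* ΔIEC organoids gave 0 of 4, beside 25.5% of all genes, also without adjustment. *Rnaseh2b* ΔIEC against *Atg16l1* ΔIEC organoids gave 1 of 4, a rise of *Reg4*, beside 6.81% of all genes (4.34% higher). *Reg3a* is left out of the last 2 counts because of how it was chosen. The median difference over all tested genes was near 0 in each comparison, at 0.00 on the log2 scale in *Atg16l1* ΔIEC against WT organoids, where the median over the 5 members was 0.59. In bulk organoids, fewer cells of a type and less RNA per cell cannot be told apart, for any of these differences.

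**Figure D1:**
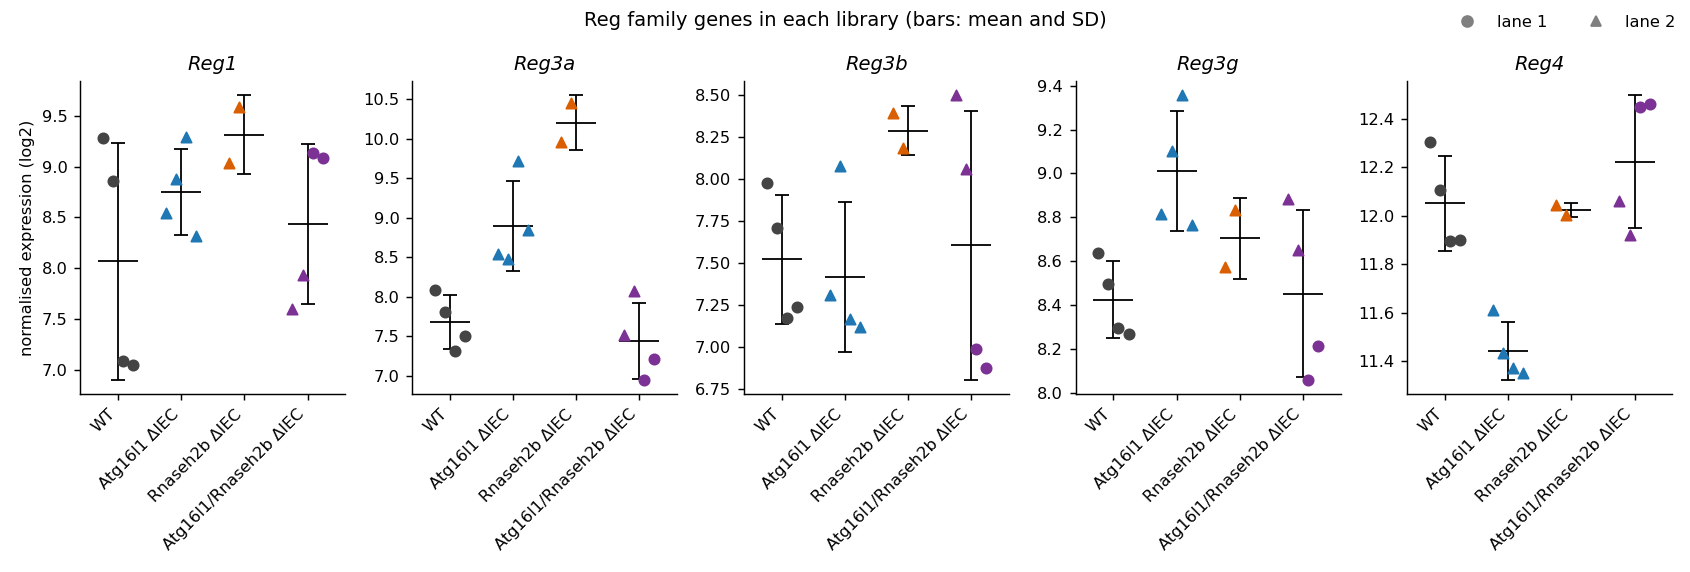
Normalised expression (log2) of the 5 Reg genes in each of the 14 libraries, with circles for lane 1, triangles for lane 2, and black bars for the mean and SD of each genotype. Libraries stand in order of their number from left to right. *Reg3a* is highest in the 2 *Rnaseh2b* ΔIEC libraries (9.96 and 10.45), and *Reg4* is lowest in the 4 *Atg16l1* ΔIEC libraries (11.35 to 11.61).

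*Reg3a*, a member of the antimicrobial Reg3 group, varied most of the members between genotypes. The set was chosen partly for the rise of *Reg3a*, so nothing is read from this rank. Its values were 8.09, 7.80, 7.31 and 7.51 in WT libraries 1 to 4, and 8.54, 8.48, 9.72 and 8.84 in *Atg16l1* ΔIEC libraries 1 to 4. They were 9.96 and 10.45 in *Rnaseh2b* ΔIEC libraries and 7.51, 8.08, 6.95 and 7.21 in double knockout libraries 1 to 4. Every library of either single knockout was above every WT and every double knockout library, and both *Rnaseh2b* ΔIEC libraries were above all others. With only 2 libraries on a side, groups did not overlap for 55.5% of all genes in *Rnaseh2b* ΔIEC against WT and for 49.9% in double knockout against *Rnaseh2b* ΔIEC organoids, and nothing is read from this for *Reg3a*.

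The rise of *Reg3a* in *Rnaseh2b* ΔIEC over WT organoids was 2.53 (SE 0.35) on the log2 scale, a 5.76-fold difference and the largest rise of the 12802 tested genes. This is the value that chose it. The next rises were 2.17 for *Cyp3a11*, a drug-metabolising cytochrome, and 2.16 for *G6pc*, the catalytic subunit of glucose-6-phosphatase. In the same contrast *Reg1* was 1.24 higher (rank 43), *Reg3b* 0.77 higher (rank 151), *Reg3g* 0.28 higher (rank 1008) and *Reg4* 0.03 lower, with a difference of -0.03. Of all genes, 26.7% passed the limma test in this contrast, and nothing is read from it for the members.

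In *Atg16l1* ΔIEC organoids, *Reg3a* was 2.33-fold higher than in WT, a log2 difference of 1.22 (SE 0.29, 95% CI 0.60 to 1.84, limma adjusted p = 0.010). The libraries did not overlap (two-sided exact permutation p = 0.029, the smallest that 4 against 4 libraries allow). All libraries of 1 group were above those of the other for 24.6% of all tested genes. With lane as a covariate, which rests on the 4 double knockout libraries, the difference was 0.51 (limma adjusted p = 0.47, range over 23 alternatives 0.0069 to 0.47). It was 0.84 without *Atg16l1* ΔIEC libraries 3 and 4 and 0.95 without WT libraries 3 and 4, both no longer past the threshold. With libraries 1 and 2, and 3 and 4, averaged before the fit, the difference of 1.22 did not pass (limma adjusted p = 0.29). Between these groups themselves, lane cannot be told apart from genotype. The WT libraries here also belong to the contrast that chose *Reg3a*. That choice favours low WT values, so this test is not independent of it.

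In double knockout organoids, *Atg16l1* and *Rnaseh2b* were less reduced than in the single knockouts. *Reg3a* was within the range of WT libraries there or below it. It was 2.75-fold lower than in *Atg16l1* ΔIEC organoids, a log2 difference of -1.46 (SE 0.29, 95% CI -2.08 to -0.84, limma adjusted p = 0.0037). Every double knockout library was below every *Atg16l1* ΔIEC library (exact permutation p = 0.029), as was the case, in either direction, for 23.9% of all genes. This comparison shares no library with the one that chose *Reg3a*. Within lane 2 the difference was -1.10, and it passed in 23 of 24 alternatives (limma adjusted p from 0.0020 to 0.23), with the exception of averaging libraries 1 and 2, and 3 and 4, before the fit, which leaves 2 values per group. Against WT, the double knockout difference of -0.24 (SE 0.29, 95% CI -0.86 to 0.38, limma adjusted p = 0.59) did not pass. That comparison shares the WT libraries with the contrast that chose *Reg3a*.

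Ordered by level, *Reg3a* was 10.20 ± 0.35 (SD) in *Rnaseh2b* ΔIEC (n = 2), 8.90 ± 0.57 (SD) in *Atg16l1* ΔIEC (n = 4), 7.68 ± 0.34 (SD) in WT (n = 4) and 7.44 ± 0.48 (SD) in double knockout organoids (n = 4). The last 2 neighbours did not differ beyond their spread, and the rise of *Atg16l1* ΔIEC over WT is given above with its dependence on lane. The double knockout was 2.77 below *Rnaseh2b* ΔIEC on the log2 scale (difference -2.77, SE 0.35), and *Rnaseh2b* ΔIEC was 1.304 above *Atg16l1* ΔIEC (SE 0.35). Both values hold the libraries that chose the gene and were not tested. The latter lies within lane 2 on both sides.

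*Reg3g*, the antimicrobial lectin best known for its action on Gram-positive bacteria, passed in the same 2 comparisons and directions as *Reg3a*, with smaller differences. It was 8.64, 8.50, 8.29 and 8.27 in WT libraries 1 to 4 and 8.82, 9.10, 9.36 and 8.76 in *Atg16l1* ΔIEC libraries 1 to 4. It was 8.57 and 8.84 in *Rnaseh2b* ΔIEC libraries, and 8.88, 8.65, 8.06 and 8.21 in double knockout libraries 1 to 4. All *Atg16l1* ΔIEC libraries were above all WT libraries, whereas double knockout library 1 lay among the *Atg16l1* ΔIEC libraries.

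The rise of *Reg3g* in *Atg16l1* ΔIEC over WT organoids was 1.502-fold, or 0.59 on the log2 scale (SE 0.18, 95% CI 0.21 to 0.96, limma adjusted p = 0.033, exact permutation p = 0.029). *Reg3g* was lower in double knockout than in *Atg16l1* ΔIEC organoids, with a log2 difference of -0.56 (SE 0.18, 95% CI -0.94 to -0.18, limma adjusted p = 0.034, exact permutation p = 0.086). The first passed in 12 of 23 alternatives (limma adjusted p from 0.017 to 0.92) and the second in 12 of 24 (limma adjusted p from 0.0027 to 0.31). The first became -0.05 with lane as a covariate, and the second -0.24 within lane 2. The first was no longer past the threshold without *Atg16l1* ΔIEC library 2 (0.56), without *Atg16l1* ΔIEC library 3 (0.47) or without WT library 2 (0.61), 3 (0.54) or 4 (0.53). For the second this was the case without *Atg16l1* ΔIEC library 2 (-0.53) or 3 (-0.44) and without double knockout library 3 (-0.43) or 4 (-0.48). Of the library pairs, the first was lost without either pair of *Atg16l1* ΔIEC (0.64 and 0.54) or without WT libraries 3 and 4 (0.44), and the second without either pair of *Atg16l1* ΔIEC (-0.61 and -0.51) or without double knockout libraries 3 and 4 (-0.24).

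The order of *Reg3g* levels was 9.01 ± 0.28 (SD) in *Atg16l1* ΔIEC (n = 4), 8.70 ± 0.19 (SD) in *Rnaseh2b* ΔIEC (n = 2), 8.45 ± 0.38 (SD) in double knockout (n = 4) and 8.42 ± 0.18 (SD) in WT organoids (n = 4). No neighbours in that order differed beyond their spread by the limma test. The difference of *Rnaseh2b* ΔIEC from *Atg16l1* ΔIEC was -0.31 (95% CI -0.77 to 0.16, limma adjusted p = 0.43). The double knockout differed from *Rnaseh2b* ΔIEC by -0.25 (95% CI -0.71 to 0.21, limma adjusted p = 0.41) and from WT by 0.03 (95% CI -0.35 to 0.41, limma adjusted p = 0.93).

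*Reg3b*, the third antimicrobial lectin, passed in no comparison over all libraries without lane in the fit. It was 7.98, 7.71, 7.18 and 7.24 in WT libraries 1 to 4 and 7.31, 8.08, 7.17 and 7.12 in *Atg16l1* ΔIEC libraries 1 to 4. It was 8.39 and 8.19 in *Rnaseh2b* ΔIEC libraries, and 8.50, 8.06, 6.99 and 6.88 in double knockout libraries 1 to 4. Both *Rnaseh2b* ΔIEC libraries were above all WT and *Atg16l1* ΔIEC libraries, and the double knockout libraries lay on both sides of them.

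Between *Rnaseh2b* ΔIEC and *Atg16l1* ΔIEC organoids, *Reg3b* differed by 0.87 (SE 0.41, 95% CI -0.02 to 1.76, limma adjusted p = 0.23, exact permutation p = 0.067, the smallest that 2 against 4 libraries allow). Libraries of the groups did not overlap for 37.8% of all genes in this contrast. The *Reg3b* difference was -0.10 in *Atg16l1* ΔIEC against WT (95% CI -0.83 to 0.62), 0.08 in double knockout against WT (95% CI -0.64 to 0.81), 0.19 in double knockout against *Atg16l1* ΔIEC (95% CI -0.54 to 0.91) and -0.68 in double knockout against *Rnaseh2b* ΔIEC organoids (95% CI -1.57 to 0.20). The limma adjusted p was 0.86, 0.89, 0.71 and 0.24, respectively. Within lane 2, where only double knockout libraries 1 and 2 are left, *Reg3b* was 0.86 higher in double knockout than in *Atg16l1* ΔIEC organoids and passed the test (limma adjusted p = 0.040). With lane as a covariate, *Reg3b* was lower in *Atg16l1* ΔIEC than in WT organoids and passed (-1.45, limma adjusted p = 0.026). It also passed with lane as a covariate in double knockout (0.86, limma adjusted p = 0.027) and in *Rnaseh2b* ΔIEC (0.87, limma adjusted p = 0.048) against *Atg16l1* ΔIEC organoids.

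*Reg1* had the widest spread of the members among WT libraries. It was 9.28, 8.86, 7.10 and 7.06 in WT libraries 1 to 4 and 8.54, 8.87, 9.29 and 8.32 in *Atg16l1* ΔIEC libraries 1 to 4. It was 9.04 and 9.59 in *Rnaseh2b* ΔIEC libraries, and 7.60, 7.94, 9.13 and 9.09 in double knockout libraries 1 to 4. WT libraries 1 and 2 and double knockout libraries 3 and 4 were within the range of the single knockouts, and the other pair of each was below it.

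The order of *Reg1* was 9.31 ± 0.39 (SD) in *Rnaseh2b* ΔIEC (n = 2), 8.75 ± 0.42 (SD) in *Atg16l1* ΔIEC (n = 4), 8.44 ± 0.78 (SD) in double knockout (n = 4) and 8.07 ± 1.16 (SD) in WT organoids (n = 4), with no neighbours apart beyond their spread. In *Atg16l1* ΔIEC against WT organoids, the difference was 0.68 (95% CI -0.39 to 1.75, limma adjusted p = 0.36). It was 0.37 in double knockout against WT (95% CI -0.71 to 1.44, limma adjusted p = 0.64) and -0.31 in double knockout against *Atg16l1* ΔIEC organoids (95% CI -1.39 to 0.76, limma adjusted p = 0.67). The 3 intervals reach beyond a doubling or a halving. Which libraries were kept decided the call for *Reg1*. Against WT libraries 3 and 4 alone *Atg16l1* ΔIEC organoids were 1.68 higher and passed (limma adjusted p = 0.022), and against WT libraries 1 and 2 alone they were -0.31 apart. Within lane 2, where only double knockout libraries 1 and 2 are left, *Reg1* was lower in double knockout than in *Atg16l1* ΔIEC organoids (-0.98, limma adjusted p = 0.028) and than in *Rnaseh2b* ΔIEC organoids (-1.54, limma adjusted p = 0.012, beside -0.87 over all libraries, which did not pass).

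*Reg4*, the crypt secretory and enteroendocrine marker, was the only member to pass as lower in *Atg16l1* ΔIEC than in WT organoids in the fit without lane. It was 12.30, 12.11, 11.89 and 11.90 in WT libraries 1 to 4 and 11.61, 11.44, 11.37 and 11.35 in *Atg16l1* ΔIEC libraries 1 to 4. It was 12.04 and 12.003 in *Rnaseh2b* ΔIEC libraries, and 12.06, 11.92, 12.45 and 12.46 in double knockout libraries 1 to 4. Every *Atg16l1* ΔIEC library was below every other library, and the remaining genotypes overlapped.

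*Reg4* was 1.52-fold lower in *Atg16l1* ΔIEC than in WT organoids, a log2 difference of -0.61 (SE 0.12, 95% CI -0.87 to -0.35, limma adjusted p = 0.0044, exact permutation p = 0.029). Double knockout organoids were 1.72-fold above *Atg16l1* ΔIEC organoids, a log2 difference of 0.78 (SE 0.12, 95% CI 0.52 to 1.04, limma adjusted p = 0.0011, exact permutation p = 0.029). *Rnaseh2b* ΔIEC organoids were 1.496-fold above *Atg16l1* ΔIEC organoids, a log2 difference of 0.58 (SE 0.15, 95% CI 0.26 to 0.90, limma adjusted p = 0.035, exact permutation p = 0.067). Against WT, the double knockout difference of 0.17 (95% CI -0.09 to 0.43, limma adjusted p = 0.35) did not pass.

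The *Reg4* fall against WT became -0.14 with lane as a covariate (limma adjusted p = 0.54, range over 23 alternatives 0.0028 to 0.54), and at -0.53 it was no longer past the threshold without *Atg16l1* ΔIEC libraries 3 and 4. With library pairs averaged, the fall of -0.61 did not pass (limma adjusted p = 0.29). The *Reg4* rise in double knockout over *Atg16l1* ΔIEC organoids was 0.55 within lane 2 and passed in 23 of 24 alternatives (limma adjusted p from 7.7e-05 to 0.23), again with the exception of averaged library pairs. The rise in *Rnaseh2b* ΔIEC over *Atg16l1* ΔIEC organoids, all within lane 2, passed in 10 of 20 (limma adjusted p from 0.0031 to 0.78). It ranged only from 0.50 to 0.66 and was lost without either *Rnaseh2b* ΔIEC library (0.56 without library 1, 0.60 without library 2) or without *Atg16l1* ΔIEC library 2, 3 or 4 (0.58, 0.56 and 0.55, respectively), and likewise without *Atg16l1* ΔIEC libraries 1 and 2 (0.66) or 3 and 4 (0.50).

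**Figure D2:**
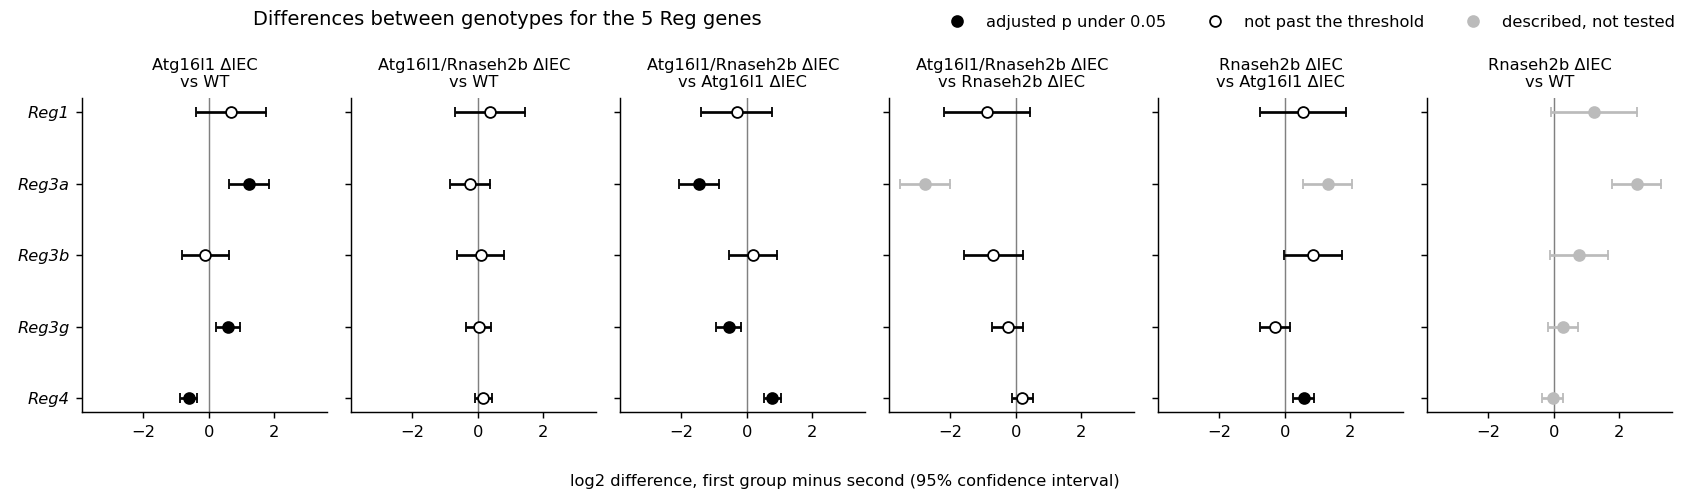
Log2 differences of the 5 Reg genes between genotypes (horizontal axis, first group minus second) with 95% confidence intervals from limma, filled black where the adjusted p passed, open where it did not, and grey where no test was made. *Reg3a* (1.22 and -1.46) and *Reg4* (-0.61 and 0.78) lie on opposite sides of 0 in *Atg16l1* ΔIEC against WT and in double knockout against *Atg16l1* ΔIEC organoids.

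The effect of *Rnaseh2b* deletion on *Reg3a* was 2.53 with *Atg16l1* present and -1.46 with *Atg16l1* deleted, 2 log2 differences that stand -3.99 apart. The same quantity was -1.55 for *Reg1*, -0.84 for *Reg3g*, -0.58 for *Reg3b* and 0.81 for *Reg4*. It contains the contrast that chose the genes and was not tested. With lane as a covariate it was -2.92 for *Reg3a* and -3.56 for *Reg1*, and it turned to 1.44 for *Reg3b* and 0.11 for *Reg3g*.

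Several members differed as much between library pairs of a genotype as between genotypes. For *Reg1*, WT libraries 1 and 2 had a mean 1.99 above that of WT libraries 3 and 4 on the log2 scale, whereas in double knockout organoids the difference between the pairs was -1.34. *Reg3b* was 1.35 higher in double knockout libraries 1 and 2 than in 3 and 4, 0.64 higher in WT and 0.55 higher in *Atg16l1* ΔIEC organoids. *Reg3a* differed by 0.54 in WT, 0.71 in double knockout and -0.77 in *Atg16l1* ΔIEC organoids. In double knockout organoids the 2 pairs are also the 2 lanes, so pair and lane cannot be told apart there. *Rnaseh2b* ΔIEC organoids have libraries 1 and 2 only, and their spread says nothing on how far a further pair would lie.

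**Figure D3:**
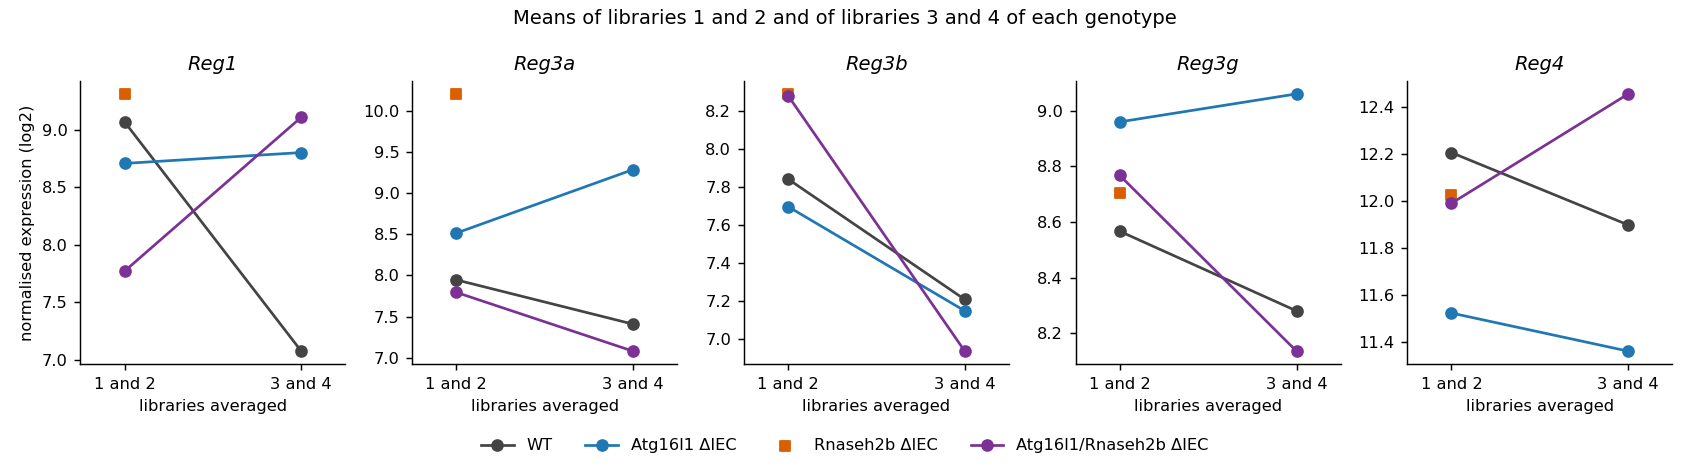
Mean normalised expression (log2) of libraries 1 and 2 and of libraries 3 and 4 of each genotype for the 5 Reg genes, with a square for *Rnaseh2b* ΔIEC, which has libraries 1 and 2 only. The lines cross for *Reg1*, from 9.07 to 7.08 in WT and from 7.77 to 9.11 in double knockout organoids, and stay apart for *Reg4* between *Atg16l1* ΔIEC and the other genotypes.

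Among the members, levels are compared on a log2 scale after division by the summed exon length in kilobases. In WT organoids *Reg4* was highest at 12.02, followed by *Reg1* at 8.22, *Reg3a* at 7.95, *Reg3g* at 7.34 and *Reg3b* at 7.33. In *Rnaseh2b* ΔIEC organoids *Reg3a*, at 10.48, was second to *Reg4*, at 11.99. The exon union of *Reg3g* (2114 bases) was longer than that of *Reg3a* (825 bases), which lowers its level on this scale.

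Pairs of members differed in how closely they followed each other across the 14 libraries. The correlation was 0.65 between *Reg3a* and *Reg3g* and 0.74 after the genotype means were removed, and it was 0.39 and 0.74 between *Reg3b* and *Reg3g*. *Reg3g* and *Reg4* had r = -0.73, and -0.39 after the genotype means were removed. *Reg1* and *Reg4* had r = 0.15, and 0.76 after that step. These are descriptions over 14 libraries that share genotype, lane and pair.

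Genes of other intestinal cell types were read beside the members. *Reg3a* moved with the enterocyte markers, a list of 10 absorptive genes such as *Fabp2* and *Apoa4*, for fatty acid and lipid handling, and the sugar transporter *Slc5a1*. Over the 14 libraries its r with their mean was 0.94, and 0.90 after genotype means were removed. The log2 of their summed level was 18.01 to 18.16 in *Rnaseh2b* ΔIEC, 17.04 to 17.79 in *Atg16l1* ΔIEC, 16.97 to 17.58 in WT and 16.73 to 17.20 in double knockout organoids. None of the 10 was at the floor of the table.

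In *Rnaseh2b* ΔIEC against WT organoids, the contrast that chose *Reg3a*, the median difference of the 10 enterocyte genes was 1.12, with *Apoa4* at 1.37 and *Lct*, which encodes lactase, at 1.56. By the limma test, 9 of the 10 were lower in double knockout than in *Rnaseh2b* ΔIEC organoids, where 25.5% of all genes passed in either direction. In double knockout against *Atg16l1* ΔIEC organoids 4 of 10 were lower, among them *Sis* (-0.74), which encodes sucrase-isomaltase, beside 12.5% of all genes. In *Atg16l1* ΔIEC against WT organoids, where *Reg3a* and *Reg3g* rose, 0 of 10 passed by limma, beside 19.1% of all genes. Of the 10, 2 had an unadjusted p under 0.05, and the median difference was 0.24. The part of the enterocyte markers in the differences of *Reg3a* was not tested. *Reg4* had r = -0.24 with the same list, *Reg3b* 0.44, *Reg3g* 0.49 and *Reg1* 0.56.

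**Figure D4:**
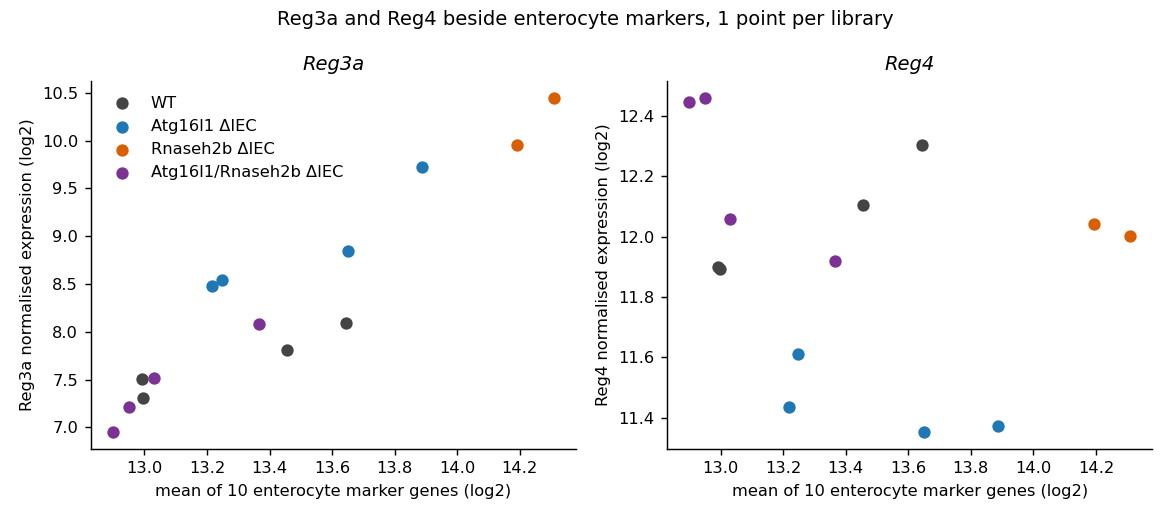
*Reg3a* (left) and *Reg4* (right) normalised expression (log2, vertical axes) against the mean of 10 enterocyte marker genes (log2, horizontal axes), with 1 point per library coloured by genotype. *Reg3a* lies along a rising line (r = 0.94) from double knockout and WT to *Rnaseh2b* ΔIEC libraries, and *Reg4* does not (r = -0.24).

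Lists of crypt cell types were read beside *Reg4*. Of all genes, 10.4% were lower in *Atg16l1* ΔIEC than in WT organoids. Between double knockout and *Atg16l1* ΔIEC organoids, 12.6% of all genes were higher. Of 8 goblet genes, 5 were lower in *Atg16l1* ΔIEC than in WT organoids and 8 higher in double knockout than in *Atg16l1* ΔIEC organoids. The log2 of their summed level was 15.45 to 15.75 in *Atg16l1* ΔIEC, 15.93 to 16.42 in WT, 16.34 to 16.61 in double knockout and 15.54 to 15.69 in *Rnaseh2b* ΔIEC organoids. Of 6 stem cell genes, 6 were lower in *Atg16l1* ΔIEC than in WT organoids, for example *Lgr5* (-0.85) and *Olfm4* (-1.22), and 5 were higher in double knockout than in *Atg16l1* ΔIEC organoids. *Olfm4* was the exception, at -0.28 in that comparison and -1.51 in double knockout against WT organoids. The summed level of the 6 genes was 13.95 to 14.22 in *Atg16l1* ΔIEC, 14.60 to 14.78 in WT, 14.40 to 14.69 in double knockout and 14.15 to 14.22 in *Rnaseh2b* ΔIEC organoids. *Reg4* was also higher in *Rnaseh2b* ΔIEC than in *Atg16l1* ΔIEC organoids. There 0 goblet genes were higher and 1 lower, and 0 of 6 stem cell genes passed, beside 6.81% of all genes. *Reg4* did not pass in double knockout against *Rnaseh2b* ΔIEC organoids. There 7 of 8 goblet genes were higher, and 2 stem cell genes were higher and 1 lower, beside 25.5% of all genes.

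Of 11 enteroendocrine genes tested, 2 were lower in *Atg16l1* ΔIEC than in WT organoids, and 4 were higher and 1 lower in double knockout than in *Atg16l1* ΔIEC organoids. For 9 Paneth genes, 1 was lower in the first comparison and 5 were higher in the second. Beside 10.4% of all genes that were lower in the first, both lists stand near or little above the share there. In the second, 12.6% of all genes were higher, and both lists stand above that share. The r of *Reg4* was 0.60 with the Paneth, 0.62 with the stem cell, 0.52 with the goblet and 0.42 with the enteroendocrine list, but -0.04, -0.13, -0.58 and -0.06 after genotype means were removed. The part of these lists in the differences of *Reg4* was not tested. *Reg1*, in turn, had r = -0.93 with the goblet list after genotype means were removed, and -0.67 before.

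Genes of non-epithelial cells were read as a check on these epithelial cultures. Of 10 stromal and immune genes, 9 had a row and 5 of those were below the filter, among them *Ptprc* (0.49), the leukocyte antigen CD45, and *Cd3e* (-1.33), a T cell receptor subunit. The other 4, *Vim*, *Cd14*, *Lyz2* and *Pecam1*, passed it. The linear sum of the list was 318 to 475 over the 14 libraries, beside 447 to 653 for a list of 6 tuft cell genes.

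Genes of the pathways that are known to act on Reg3 transcription are given by their counts, which are to be read beside the shares of all genes given above. Of 19 tested genes of cytokine receptors, JAK kinases, STAT factors and their SOCS inhibitors, 1 was higher and 1 lower in *Atg16l1* ΔIEC than in WT organoids. The lower gene was *Il6st*, the shared receptor chain of the interleukin-6 family (-0.23, SE 0.03, limma adjusted p = 0.00064). Between double knockout and *Atg16l1* ΔIEC organoids 1 was higher and 4 lower, with *Socs2* (-0.39), *Il6st* (0.20) and *Il4ra* (-0.17) the largest. *Stat3* itself was lower in that comparison (-0.17, SE 0.04, limma adjusted p = 0.016).

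*Il22ra1*, which encodes the interleukin-22 receptor chain of epithelial cells, was higher in *Rnaseh2b* ΔIEC than in *Atg16l1* ΔIEC organoids (0.39, SE 0.06, limma adjusted p = 0.0029), the only gene of this list to pass there. The double knockout had less of it than *Rnaseh2b* ΔIEC organoids (-0.27, SE 0.06, limma adjusted p = 0.0078), whereas *Il6st* was higher (0.31), and 2 of 19 were higher and 4 lower in all. Against WT, the double knockout had 1 higher and 2 lower, the latter *Socs2* (-0.25) and *Jak2* (-0.18). In *Rnaseh2b* ΔIEC against WT organoids, described here without a test, *Il22ra1* differed by 0.42 and *Il6st* by -0.34. The median of the list was between -0.05 and 0.01 in the 6 comparisons of genotypes.

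Of 17 tested genes of Toll-like receptor and NF-kB signalling, 1 was higher and 2 lower in *Atg16l1* ΔIEC than in WT organoids, namely the adaptor *Myd88* (0.22), the kinase gene *Irak4* (-0.21) and *Tnfaip3* (-0.57), which encodes the inhibitor A20. Against *Atg16l1* ΔIEC, the double knockout had 1 higher, *Irak4* (0.24), and 3 lower, among them the receptor genes *Nod1* (-0.46) and *Tlr5* (-0.42). *Myd88* was also higher in double knockout than in WT organoids (0.15), with *Tnfaip3* (-0.37) and *Ticam1* (-0.28) lower. Against *Rnaseh2b* ΔIEC, it had 2 higher, *Tnfaip3* (0.45) and *Irak1* (0.26), and 1 lower, *Nod1* (-0.35). In *Rnaseh2b* ΔIEC against *Atg16l1* ΔIEC organoids 0 of 17 passed by limma, and 4 had an unadjusted p under 0.05. Against WT, where no test is read, the *Rnaseh2b* ΔIEC differences were -0.83 for *Tnfaip3*, 0.21 for *Myd88* and -0.19 for *Ticam1*.

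Of 20 other epithelial genes that are known to respond to STAT3 or NF-kB, 12 could be tested. In *Atg16l1* ΔIEC against WT organoids, 0 were higher and 1 lower, *Nos2* (-0.40), which encodes inducible nitric oxide synthase. In double knockout against *Atg16l1* ΔIEC organoids, 0 were higher and 3 lower, beside 12.5% of all genes that were lower, namely *Il18* (-0.51), *Pigr* (-0.48), the receptor that carries IgA across the epithelium, and *Nfkbiz* (-0.30). *Il18* (-1.17) and *Pigr* (-0.65) were also lower in double knockout than in *Rnaseh2b* ΔIEC organoids, where *Duox2* (0.76) and *Duoxa2* (0.28), the oxidase and its maturation factor, were higher. *Nos2* was lower in *Rnaseh2b* ΔIEC than in *Atg16l1* ΔIEC organoids (-0.72), and in double knockout against WT organoids *Nos2* was lower (-0.70) and the chemokine gene *Ccl20* higher (0.38). In *Rnaseh2b* ΔIEC against WT organoids, again without a test, the differences farthest from 0 were -1.12 for *Nos2*, 1.05 for *Il18* and -0.97 for *Duox2*.

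Of 4 tested genes for proposed Reg receptors and Reg-processing enzymes, the growth factor receptor gene *Egfr* was lower in *Atg16l1* ΔIEC than in WT organoids (-0.27, SE 0.05, limma adjusted p = 0.0050). It was higher in double knockout than in *Atg16l1* ΔIEC (0.41) and *Rnaseh2b* ΔIEC organoids (0.47). *Mmp7*, a protease gene of Paneth cells, was higher in double knockout than in *Atg16l1* ΔIEC (0.59) and WT organoids (0.75). By limma, 0 of 4 passed in *Rnaseh2b* ΔIEC against *Atg16l1* ΔIEC organoids, also without adjustment.

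The genes most like each member were taken as the 5 with the highest Pearson r over the 14 libraries among all other tested genes, which makes high values likely. For *Reg3a* these were *Fmo1*, a flavin monooxygenase gene (0.98), *Hagh*, a glyoxalase gene (0.98), *Acsm5*, a fatty acid activating enzyme gene (0.98), *G6pc* (0.97) and *H2-Q2*, an MHC class I gene (0.97). *G6pc* was 10.36 ± 0.03 (SD) in *Rnaseh2b* ΔIEC (n = 2), 9.04 ± 0.42 (SD) in *Atg16l1* ΔIEC (n = 4), 8.20 ± 0.30 (SD) in WT (n = 4) and 8.15 ± 0.47 (SD) in double knockout organoids (n = 4), the same order as *Reg3a*. After genotype means were removed, the r of the 5 with *Reg3a* was 0.89 to 0.96.

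For *Reg4* they were *Afp*, the alpha-fetoprotein gene (0.94), *Rabac1* (0.91), the nucleoside transporter gene *Slc29a2* (0.90), *Tpbg* (0.90) and *Alb*, the albumin gene (0.90). *Afp* was 9.59 ± 0.06 (SD) in *Atg16l1* ΔIEC (n = 4), 10.47 ± 0.39 (SD) in WT (n = 4), 10.59 ± 0.13 (SD) in *Rnaseh2b* ΔIEC (n = 2) and 10.48 ± 0.39 (SD) in double knockout organoids (n = 4), and like *Reg4* it was lowest in *Atg16l1* ΔIEC organoids. *Afp* kept r = 0.91 with *Reg4* after genotype means were removed, whereas *Rabac1* had 0.63.

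The nearest genes of *Reg1* were *Cpn1*, a carboxypeptidase gene (0.96), *Gstt1*, a glutathione transferase gene (0.94), the glutamate transporter gene *Slc1a3* (0.94), the aminotransferase gene *Got2* (0.92) and *Rasal1* (0.91). They kept r between 0.90 and 0.98 after genotype means were removed, so the likeness was to the differences between library pairs as well. *Reg3b* was nearest to *Nmt1* (0.92), *Ubl5* (0.91), *Prkar1a* (0.90), *Gid8* (0.89) and *Ndufb9* (0.87). *Reg3g* was nearest to *Sipa1l2* (0.88), *Ift46* (0.88), *Coa3* (0.87), *Prdx3* (0.87) and *Gclm* (0.87). Spearman's rho picked 0 to 3 of the same 5 for a member, so the lists depend on the measure.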

How the data were processed

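Total RNA of small intestinal organoids was sequenced by the authors as stranded mRNA libraries with reads of 50 bases. Adapters were removed with cutadapt, TopHat2 placed the reads on GRCm38, HTSeq gave gene counts and DESeq2 served for the authors' own comparisons (versions not given in the sources used here). They left 2 *Rnaseh2b* ΔIEC samples out. The deposited table holds log2 values of 18781 genes in 14 libraries, normalised by a transformation that is not named, so no count model was run and depth is unknown. All 14 columns were mapped by library name.

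A gene was tested if its mean value reached 3.32, which is 10 without the logarithm. The test was limma 3.58.1 in R 4.3.3 (lmFit, contrasts.fit and trended eBayes), fitted to the 4 genotypes over all libraries, with Benjamini-Hochberg adjustment over the 12802 genes at 0.05. Exact permutation tests were two-sided over libraries. The fit was also run on simulated data with independent libraries. The real libraries deviate in pairs, so nothing is read from that run. Members, lists and tests were chosen with earlier results of these data known. Named genes were the 5 members, *Reg2* and *Reg3d*, the deleted genes, the 5 genes nearest each member by Pearson r, and up to 3 genes past the threshold with the largest difference per pathway list and tested comparison. *Stat3*, the cell type markers named as examples and the pathway genes given for *Rnaseh2b* ΔIEC against WT were picked after their values were seen. Symbols came from GENCODE M21 (99.7% of identifiers), promoters from RefSeq. The motif TATAAA was added after the sequences were seen. Alternatives were pseudocounts of 1 and 5 on back-transformed values, filters, scalings, lane as a covariate, single lanes, the replicate block, fits of the groups compared, averaged library pairs, no trend, and leaving out each library. Leaving out pairs was chosen after seeing the data. Figures were drawn with matplotlib 3.10.9. Some genes that the naming rule gives are not reported here.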

Additional observations from a re-analysis of the deposited data

Results flagged for a closer look

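*Reg3a* is given here because the log2 effects of 1 deletion had opposite signs in the presence and absence of the other. The first of these signs belongs to the contrast that chose *Reg3a*, so nothing is read from it. *Rnaseh2b* deletion went with higher *Reg3a* where *Atg16l1* was intact and with lower *Reg3a* where *Atg16l1* was deleted, with all 4 double knockout libraries below all *Atg16l1* ΔIEC libraries, and the 2 log2 differences stood -3.99 apart. Seen from the other gene, *Atg16l1* deletion went with higher *Reg3a* where *Rnaseh2b* was intact and with lower *Reg3a* where it was deleted, which is the same quantity of -3.99. Both deleted transcripts were less reduced in double than in single knockout organoids, so these labels do not say how complete the deletion was. The difference of -3.99 was not tested, because it contains the contrast that chose *Reg3a*. Over the alternatives tried, which refit the same libraries, it ranged from -4.23 to -2.92, so the range adds no support. *Rnaseh2b* ΔIEC and WT libraries also lie in different lanes. By Dixon's rule for outliers, the 15 groups of 4 libraries of the 5 members held no library far enough from the others to be set apart. Where libraries fall into 2 pairs, this rule can hardly set 1 apart, so nothing is read from it.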

How the results depend on the processing

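In *Atg16l1* ΔIEC against WT organoids, 3 members passed, and this became 1 with lane as a covariate (*Reg3b* alone, at -1.45), 0 with library pairs averaged, 0 without *Atg16l1* ΔIEC libraries 3 and 4 and 1 without WT libraries 3 and 4. With no filter the count was 2, as *Reg3g* was lost (limma adjusted p = 0.051). It ranged from 2 to 3 with single libraries left out. *Reg3g* turned to -0.045 with lane as a covariate. *Reg3b* turned to 0.17 without *Atg16l1* ΔIEC libraries 3 and 4, to 0.21 without WT libraries 1 and 2, and ranged from -0.32 to 0.048 when single libraries were left out. *Reg1* turned to -0.31 without WT libraries 3 and 4.

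Between double knockout and WT organoids, 0 members passed, and 1 did with lane as a covariate or without double knockout libraries 1 and 2 (*Reg4*, 0.40). With lane as a covariate, within lane 1 or without double knockout libraries 1 and 2, *Reg3b* turned to -0.59 and *Reg3g* to -0.29. Without double knockout libraries 3 and 4, *Reg1* turned to -0.30, *Reg3a* to 0.12 and *Reg4* to -0.061. *Reg3a* turned to 0.029 without WT libraries 1 and 2, and *Reg1* to -0.63, *Reg3b* to -0.23 and *Reg3g* to -0.12 without WT libraries 3 and 4. With single libraries left out, *Reg3b* ranged from -0.21 to 0.33 and *Reg3g* from -0.12 to 0.16.

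In double knockout against *Atg16l1* ΔIEC organoids, 3 members passed, 0 did with library pairs averaged, 4 within lane 2 (*Reg1* and *Reg3b* gained, *Reg3g* lost), 3 with lane as a covariate (*Reg3b* gained, *Reg3g* lost), and 2 with no filter or in a fit of these groups alone (*Reg3g* lost). *Reg3b* turned to -0.089 without *Atg16l1* ΔIEC libraries 3 and 4, and without double knockout libraries 1 and 2 it turned to -0.49 and *Reg1* to 0.35. With single libraries left out *Reg3b* ranged from -0.11 to 0.43. Against *Rnaseh2b* ΔIEC, the double knockout's count of 0 became 1 within lane 2 (*Reg1*) and 3 without double knockout libraries 1 and 2, and *Reg3g* turned to 0.064 and *Reg4* to -0.034 with lane as a covariate, within lane 2 and without double knockout libraries 3 and 4. In *Rnaseh2b* ΔIEC against *Atg16l1* ΔIEC organoids, the count of 1 became 2 with lane as a covariate, 0 with no filter, 0 with library pairs averaged, 0 without either library pair of *Atg16l1* ΔIEC, and ranged from 0 to 1 with single libraries left out. The number of members with a positive difference between the effects of *Rnaseh2b* deletion was 1, and 3 with lane as a covariate. Averaging pairs leaves fewer samples by construction. The other causes were not tested.

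The deviations of same-numbered libraries of different genotypes had r from -0.50 to 0.44 (median -0.05). Within a genotype, libraries of the same pair deviated together (r from 0.41 to 0.86). Those of different pairs deviated in opposite directions (r from -0.90 to -0.69). These differences between pairs can hide a pairing by number, so whether the numbers pair samples cannot be decided from these values. With the replicate number as a block (replicate block), the count in *Rnaseh2b* ΔIEC against *Atg16l1* ΔIEC organoids went from 1 to 0, and no other count of members changed. Pseudocounts of 1 and 5, both scalings, a filter at 50 and no mean trend changed no call of a member. Depth cannot be taken from the deposited values.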

Other observations

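*Reg3d*, the cluster gene that was too low to be tested, was 2.41 ± 0.07 (SD) in *Rnaseh2b* ΔIEC (n = 2), 2.25 ± 0.08 (SD) in *Atg16l1* ΔIEC (n = 4), 2.19 ± 0.03 (SD) in double knockout (n = 4) and 2.18 ± 0.01 (SD) in WT organoids (n = 4). These differences were not tested.

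The regenerative genes, a list that includes *Clu* and *Ly6a*, went opposite to *Reg3a* between the *Atg16l1*-deleted genotypes. Of 5 tested, 4 were higher in double knockout than in *Atg16l1* ΔIEC organoids by limma, with a list median of 1.44, beside 12.6% of all genes. In *Atg16l1* ΔIEC against WT organoids 0 passed, also without adjustment, beside 19.1% of all genes with adjustment. The r of their mean with *Reg3a* was -0.72 over the 14 libraries and -0.71 after genotype means were removed.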
